A study of Capra hircus with 12 samples.

Results

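The breed by diet interaction asks which mammary genes responded differently to feed restriction in 2 goat breeds of the Canary Islands, Majorera and Palmera. It was measured as (Majorera Restricted minus Majorera Control) minus (Palmera Restricted minus Palmera Control) on the log2 scale, so that a positive value means a higher response in Majorera and a negative value a higher response in Palmera. Genes were taken by joining the 6 deposited pairwise tables by symbol and keeping those with expected counts in all 12 libraries, which gave 1408 of the 4974 genes found in any table (28.3%). Majorera is regarded as tolerant to seasonal weight loss and Palmera as susceptible.

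The 12 libraries were bulk RNA from biopsies of the left side of the udder of lactating goats, with 3 goats in each of 4 groups: Majorera Restricted (ME), Majorera Control (MC), Palmera Restricted (PE) and Palmera Control (PC). ME and PE goats were fed wheat straw with a vitamin and mineral supplement, while MC and PC goats received a diet that met the needs of lactation. The 3 goats of a group were a random choice from a larger group, and restricted and control goats were kept in separate pens, so that diet and pen cannot be told apart within either breed. The interaction compares the breeds over the same pens, but the 2 breeds also differ in body size and milk yield.

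The lactating gland takes up glucose, fatty acids and amino acids from blood, and its epithelial cells turn them into lactose, milk fat and casein. Feed restriction reduces this supply, and when secretion falls for long the gland starts involution, in which proteases remodel the matrix and macrophages clear milk fat and dying cells. A gene shows an interaction when these events, or any other response to the diet, reach it more in one breed than in the other.

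Expected counts of the joined genes summed to between 7248558 and 21509665 per library and made up 14.3% to 73.2% of the mapped reads. Levels are given as CPM, the counts per 1000000 mapped reads after TMM scaling, a factor that brings the bulk of genes to a common level. ME replicate 2 stood apart, with a factor of 2.00, against 1.10 and 1.17 in ME replicates 1 and 3. The factor also varied widely within PE, at 0.90, 0.64 and 1.39 in replicates 1, 2 and 3, and PE replicate 2 had the lowest of all libraries. After this scaling ME replicate 2 had the lowest sum of casein and α-lactalbumin genes of the 12 libraries (76283 CPM). Before scaling it was not lowest for β-casein (CSN2), which took 10.1% of its mapped reads, against 8.80% in PE replicate 1 and 7.63% in PE replicate 3. Values without ME replicate 2 are therefore given for the counts that it changed. The selection also shaped the data, as a table lists a gene only where the authors' unadjusted p for that pair was below 0.05. The diet differences within a breed are therefore descriptions here and were not tested again. The interaction was tested on genes selected through these same counts, so its shares describe the joined genes and not all genes. A gene had all 12 counts when its tables covered all 4 groups. The tables of ME against MC and PE against PC gave 616 genes, those of PC against MC and PE against ME gave 101, and those of PE against MC and PC against ME gave 626. A further route was a group listed against each of the other 3, with 273 such genes for ME, 108 for MC, 167 for PE and 167 for PC. The median interaction was 0.83 for these ME genes and -0.76 for the MC genes, against 0.01 for PE and -0.07 for PC. At an unadjusted p under 0.05, 42 ME genes were positive and 19 negative, while 15 MC genes were positive and 22 negative. For PE these were 26 and 34, and for PC 21 and 30.

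Most joined genes had differences of the same sign in both breeds. The fitted difference was above 0 in both breeds for 609 genes and below 0 in both for 581. A further 111 genes were up in Majorera and down in Palmera, and 95 were down in Majorera and up in Palmera. The few genes left had no difference other than 0 in at least 1 breed. The interaction was estimated above 0 for 735 genes (52.2%) and below 0 for 673 (47.8%), and with scaling by mapped reads alone 82.2% were above 0. In edgeR's quasi-likelihood test 1 gene had an adjusted p under 0.05 (0.071% of 1408), with Benjamini-Hochberg adjustment over the 24260 genes of the goat annotation. At an unadjusted p under 0.05 there were 108 genes with a positive interaction (7.67%) and 120 with a negative one (8.52%), together 16.2% of the genes tested. These shares are the background against which the gene groups are read, and apart from the single called gene, no gene named here passed the adjusted test. Below, a gene is said to be under the threshold when its unadjusted p was under 0.05.

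Genes under the threshold did not all cross between the breeds. Of the 108 with a positive interaction, 61 were up in Majorera and down in Palmera, 27 were up in both breeds but more in Majorera, and 20 were down in both but more in Palmera. Of the 120 with a negative interaction, 61 were down in Majorera and up in Palmera, 39 were up in both but more in Palmera, and 20 were down in both but more in Majorera. A crossing without any overlap of libraries in either breed was found for 4 genes up in Majorera and down in Palmera (0.284%) and for 11 genes of the opposite pattern (0.781%).

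**Figure D1:**
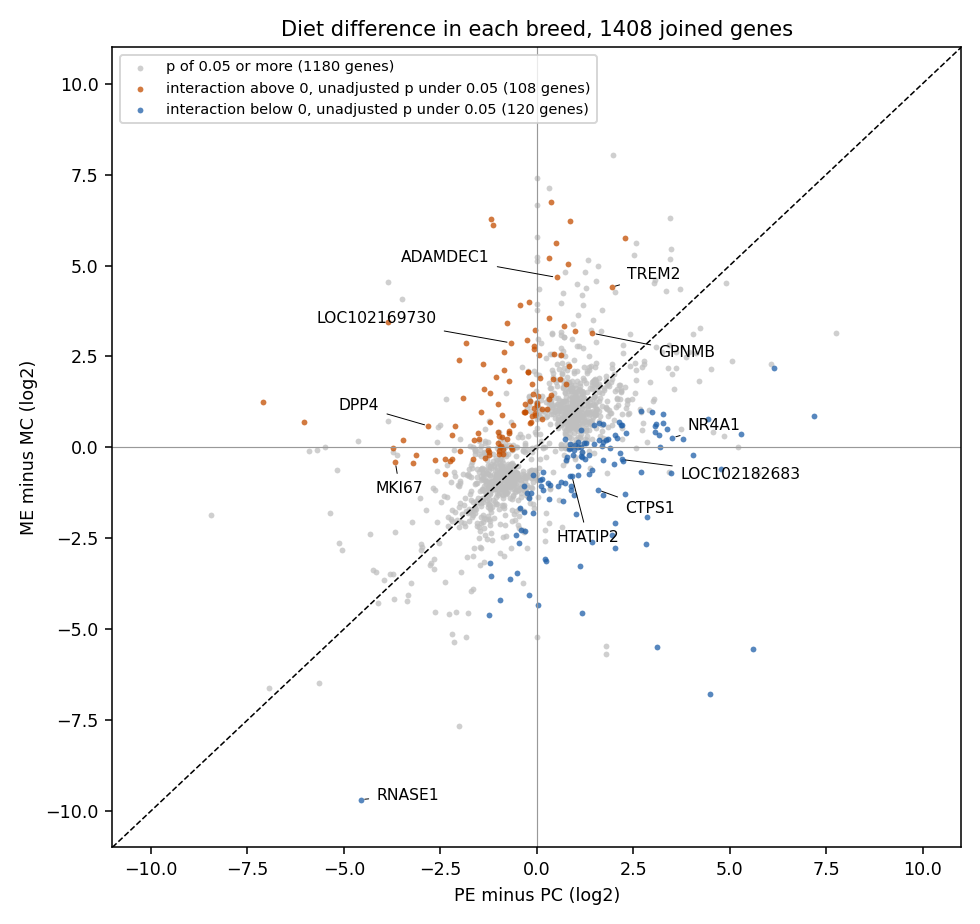
Fitted diet difference in Majorera (ME minus MC, vertical, log2) against that in Palmera (PE minus PC, horizontal, log2) for the 1408 joined genes, with genes under the unadjusted threshold in orange (108, positive interaction) and blue (120, negative interaction). Most genes lie in the upper right and lower left, where the sign was the same in both breeds, and the distance from the dashed diagonal is the interaction.

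LOC102169730 was the called gene. It is annotated as protein coding and carries no gene name, so that no function is given for it. Its level was 7.20, 9.82 and 7.43 CPM in ME goats, against 1.25, 1.09 and 0.989 CPM in MC goats. In Palmera it was 0.838, 1.91 and 1.80 CPM in PE goats, against 2.38, 2.22 and 2.58 CPM in PC goats. All ME libraries lay above all other 9 libraries, whereas all PE libraries lay below the PC libraries. The gene was also listed for ME, the group where it is high, against every other group, so its selection and its test share these values. The diet difference was 2.87 in Majorera and -0.67 in Palmera, and the interaction was 3.54 (SE 0.40, edgeR adjusted p = 0.0183, Benjamini-Hochberg).

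The sign of this interaction held in all 20 alternative settings, but the call did not. Leaving out 1 library at a time gave estimates between 3.24 and 3.74, and the edgeR call was kept in 3 of 12 such fits (without ME replicate 1, PE replicate 1 or PE replicate 2). Of its 12 counts 11 were not whole numbers, as RSEM gives where reads fit more than 1 gene.

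**Figure D2:**
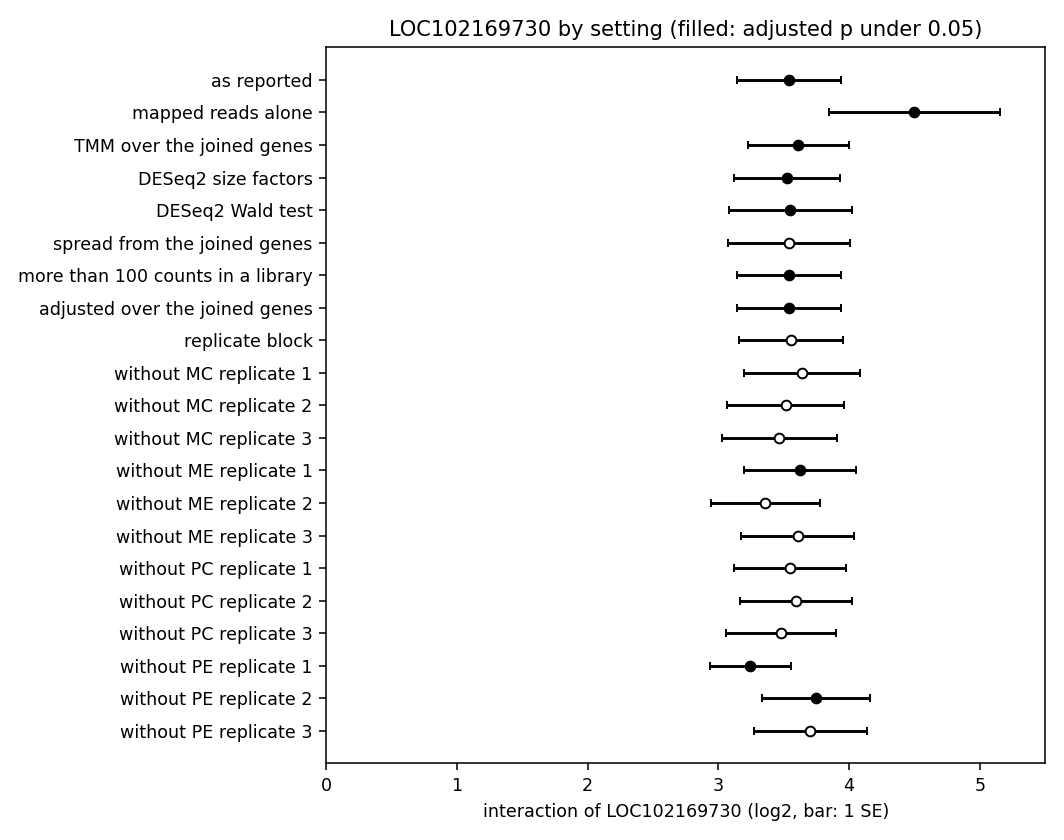
Interaction of LOC102169730 (log2, with 1 SE) as reported and under each of the 20 alternative settings, filled where the adjusted p was under 0.05. All estimates lie above 3, and 9 of the 12 leave-one-out fits have open points.

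Among the genes with a positive interaction, DPP4 had the smallest p after LOC102169730. It encodes dipeptidyl peptidase 4, a cell surface enzyme that removes dipeptides from the ends of peptide hormones and chemokines. DPP4 had 9.04, 5.94 and 7.70 CPM in ME goats, against 5.81, 7.24 and 1.98 CPM in MC goats. It had 2.74, 3.34 and 2.88 CPM in PE goats, against 10.5, 30.8 and 21.4 CPM in PC goats. The Majorera groups overlapped, while all PE libraries were below all PC libraries, so that the interaction of 3.40 (SE 0.60) came mainly from the Palmera difference of -2.81. All PC libraries also lay above those of every other group, MC included. The study lists DPP4, and IL6R and CIT below, as higher in PC than in MC goats. The edgeR adjusted p of DPP4 was 0.548 (Benjamini-Hochberg). In bulk tissue, fewer cells of a type and less RNA per cell cannot be told apart, here and for every gene below.

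The study designed qPCR primers for 6 genes, and those of the 4 with the smallest p for the interaction are shown to identify the transcripts measured, each 5′ to 3′ and within the coding region.
DPP4 forward: gcccctgtagtcaaaaagca
DPP4 reverse: accacttcctctgccatcaa
LOC102182683 forward: gccgaagtcatagccactct
LOC102182683 reverse: gcctggtttagcatcttatcg
GK forward: tggagcgatttgaacctc
GK reverse: ttgtaacccaacccattgat
RNASE1 forward: tctggaagaggaggattgc
RNASE1 reverse: gctggagaaaactgggtctg

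IL6R, the ligand-binding receptor chain for interleukin 6, had 8.19, 6.99 and 6.67 CPM in ME goats, against 4.88, 2.53 and 2.19 CPM in MC goats. In Palmera it had 5.58, 5.79 and 4.08 CPM in PE goats, against 12.8, 5.76 and 12.4 CPM in PC goats. ME lay above MC without overlap, and PE and PC overlapped through PC replicate 2. The interaction was 2.19 (SE 0.47, unadjusted p = 0.00043 in edgeR), with a diet difference of 1.18 in Majorera and -1.01 in Palmera. ALPK1, a kinase that senses a bacterial sugar in innate immunity, was one of the 4 genes that crossed upward in Majorera without overlap. Its level was 1.515, 1.88 and 1.60 CPM in ME goats, against 1.508, 1.09 and 1.13 CPM in MC goats, so that the nearest ME and MC libraries nearly touched. In Palmera it was 1.00, 1.40 and 1.65 CPM in PE goats, against 2.56, 2.94 and 2.64 CPM in PC goats, which did not overlap, and the interaction was 1.43 (SE 0.35).

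CIT, a kinase of the last step of cell division, differed on the Palmera side. It had 0.900, 1.02 and 0.898 CPM in PE goats, against 4.10, 5.26 and 3.46 CPM in PC goats, while the diet difference in Majorera was -0.32 (interaction 1.87, SE 0.41). LOC102185336, which has no gene name, had 0.944, 1.61 and 1.203 CPM in ME goats, against 0.257, 0.211 and 0.0353 CPM in MC goats. PE and PC also did not overlap for it, with 0.0818, 0.204 and 0.262 CPM in PE goats, against 1.06, 0.375 and 0.535 CPM in PC goats. Its interaction of 4.71 (SE 0.84) rests on few reads, with at most 135 counts in a library and 1.07 in MC replicate 3.

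The remaining positive genes among the 12 of smallest p had interactions from 1.14 to 4.36. NRP2, a co-receptor for vascular growth factors and semaphorins, had a diet difference of 1.16 in Majorera and 0.01 in Palmera (interaction 1.14, SE 0.33). MIB1, a ubiquitin ligase needed for Notch ligands to signal, had a difference of 0.44 in Majorera and -0.71 in Palmera (interaction 1.15, SE 0.33). ADAMDEC1, a secreted metalloprotease known from macrophages and dendritic cells, had 0.819, 7.63 and 2.93 CPM in ME goats, against 0.225, 0.0703 and 0.141 CPM in MC goats. In Palmera, PE libraries had 0.123, 0.340 and 0.561 CPM and PC libraries 0.250, 0.282 and 0.189 CPM, which overlapped. Its interaction was 4.16 (SE 1.17) with all libraries and 3.11 (SE 0.98) without ME replicate 2. The unnamed LOC102185525, LOC102176375 and LOC102188814 had interactions of 4.36 (SE 1.25), 2.70 (SE 0.81) and 1.79 (SE 0.47).

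**Figure D3:**
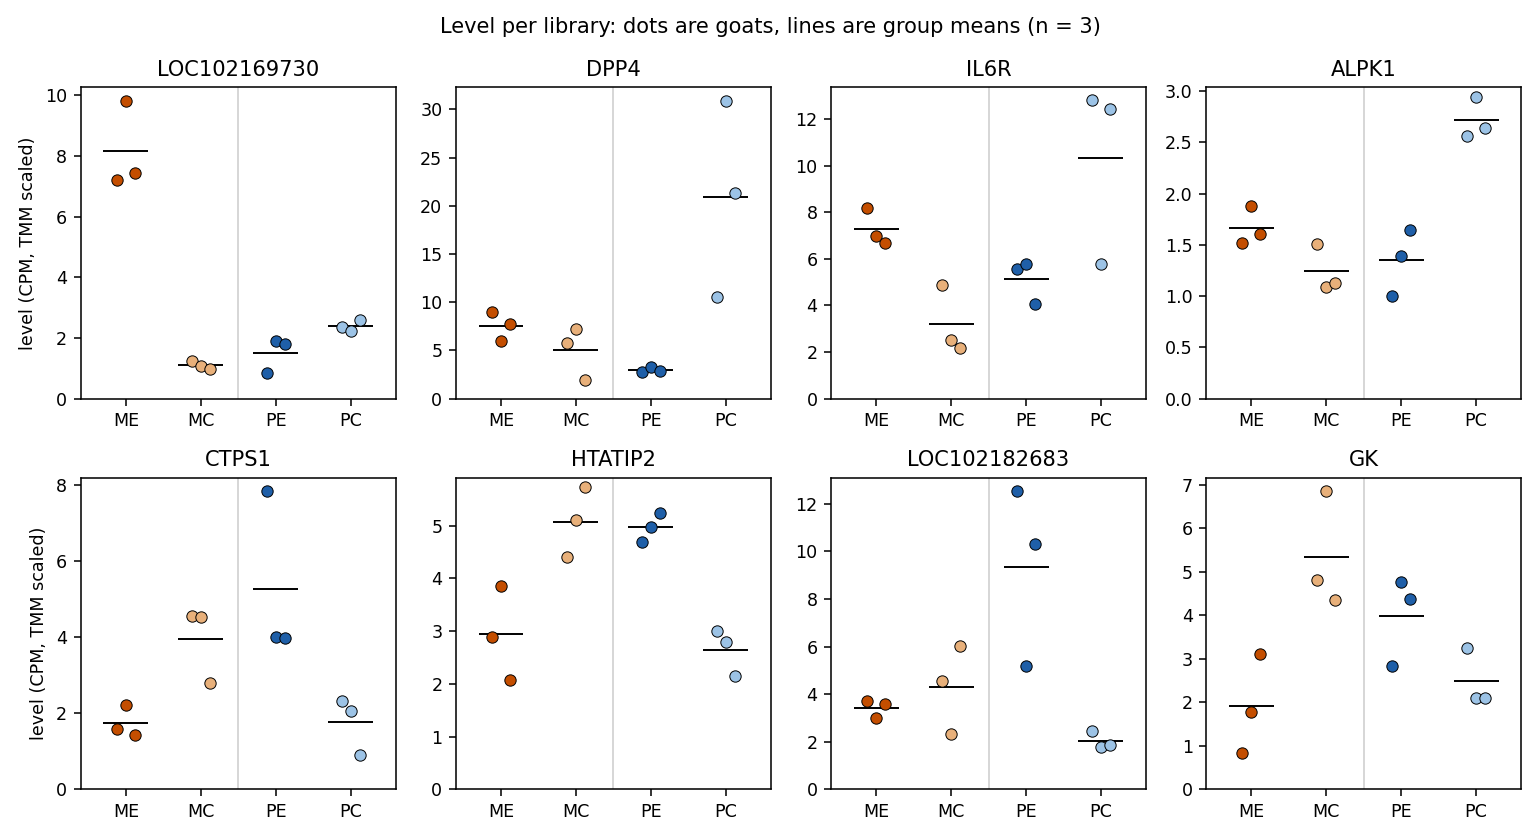
Level of 8 genes in each library (CPM after TMM scaling, linear axes from 0), with dots for goats and lines for group means (n = 3). In the upper row the response was higher in Majorera than in Palmera (LOC102169730, DPP4, IL6R, ALPK1), and in the lower row it was lower (CTPS1, HTATIP2, LOC102182683, GK).

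On the negative side CTPS1 had the smallest p of the genes over 100 counts. It encodes CTP synthase, the enzyme that makes CTP from UTP. CTPS1 had 1.59, 2.22 and 1.44 CPM in ME goats, against 4.56, 4.54 and 2.79 CPM in MC goats. It had 7.85, 4.02 and 3.99 CPM in PE goats, against 2.31, 2.06 and 0.912 CPM in PC goats. Neither pair overlapped, and the directions were opposite, with a difference of -1.17 in Majorera and 1.58 in Palmera. The interaction was -2.75 (SE 0.52, edgeR adjusted p = 0.755, Benjamini-Hochberg).

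HTATIP2, an oxidoreductase-like protein known in human as a tumour suppressor, showed the same crossing with little scatter. Its level was 2.88, 3.86 and 2.07 CPM in ME goats, against 4.39, 5.10 and 5.72 CPM in MC goats. In Palmera it was 4.68, 4.97 and 5.24 CPM in PE goats, against 3.00, 2.78 and 2.14 CPM in PC goats. PE goats were thus at the level of MC goats and ME goats near that of PC goats, and the interaction was -1.69 (SE 0.33).

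LOC102182683 is annotated by the study as growth-regulated alpha protein-like, a member of the chemokine family that attracts neutrophils. It had 3.70, 3.00 and 3.57 CPM in ME goats, against 4.56, 2.32 and 6.04 CPM in MC goats, which overlapped. It had 12.6, 5.17 and 10.3 CPM in PE goats, against 2.47, 1.78 and 1.86 CPM in PC goats, which did not. The interaction was -2.54 (SE 0.50), with a difference of -0.33 in Majorera and 2.20 in Palmera. All 12 counts of this gene were fractional, so that some of its reads were shared with other genes.

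Also among the 11 genes that crossed downward in Majorera without overlap were GCSH and SDSL. GCSH, the carrier protein of the glycine cleavage system, had 1.09, 1.06 and 0.865 CPM in ME goats, against 1.38, 2.92 and 1.69 CPM in MC goats. It had 2.52, 2.59 and 1.80 CPM in PE goats, against 1.35, 1.56 and 1.23 CPM in PC goats (interaction -1.72, SE 0.42). SDSL, a serine dehydratase-like enzyme, had 6.11, 2.10 and 6.65 CPM in ME goats, against 10.9, 9.25 and 16.3 CPM in MC goats. For SDSL the levels were 9.20, 8.71 and 11.5 CPM in PE goats, against 3.32, 8.04 and 3.71 CPM in PC goats (interaction -2.27, SE 0.59). Counts of GCSH were fractional in 11 of 12 libraries. The others of this pattern were CTPS1, HTATIP2, TNFSF13, NDNF, COL6A6, CLGN, SARDH, FBLN2 and PHTF1.

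Further genes on the negative side differed in where the interaction came from. HN1 had a narrow spread, with 7.70, 8.16 and 8.11 CPM in ME goats, against 12.3, 15.6 and 16.6 CPM in MC goats, while its Palmera difference was 0.08 (interaction -0.97, SE 0.23). TNFSF13, a cytokine that keeps plasma cells alive, had a difference of -1.07 in Majorera and 0.89 in Palmera (interaction -1.96, SE 0.52). PEBP4, of the phosphatidylethanolamine-binding family, and the unnamed LOC102172082 had interactions of -5.48 (SE 1.29) and -3.55 (SE 0.90), and in LOC102172082 the PE libraries ranged from 1.15 to 11.1 CPM.

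RNASE1, a secreted ribonuclease, was lower in restricted goats of both breeds, and its interaction is a difference in size between these 2 differences. It had 0.273, 0.561 and 0.211 CPM in ME goats, against 180, 170 and 567 CPM in MC goats. It had 0.0409, 0.0340 and 0.0561 CPM in PE goats, against 1.22, 1.31 and 0.881 CPM in PC goats. MC libraries were far above the other 9, PC libraries included. The difference was -9.69 in Majorera and -4.56 in Palmera (interaction -5.13, SE 1.38), and the Palmera value rests on 2, 1 and 3 counts in the PE libraries.

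Milk fat synthesis was the metabolic group with the most members under the threshold by count, but not by share of its joined genes. Nucleotide synthesis and salvage had 3 positive and 1 negative among 5 joined, and the share over all joined genes was 16.2%. Of 37 listed genes, 14 were joined, 6 of these were under the threshold, and all 6 had a negative interaction. The median interaction of the 14 was -1.09, against 0.04 over all 1408 genes, with a median diet difference of -1.30 in Majorera and -0.71 in Palmera. GK, glycerol kinase, which makes the glycerol 3-phosphate backbone of triacylglycerol, had 0.844, 1.77 and 3.10 CPM in ME goats, against 4.81, 6.86 and 4.34 CPM in MC goats. GK had 2.82, 4.76 and 4.38 CPM in PE goats, against 3.25, 2.10 and 2.11 CPM in PC goats. Only the Majorera pair was free of overlap, and the interaction was -2.16 (SE 0.55).

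The remaining 5 had wider errors. THRSP, a regulator of lipogenesis, had 0.0248, 0.227 and 0.0211 CPM in ME goats, against 2.86, 0.668 and 2.01 CPM in MC goats, and its Palmera difference was -0.21 (interaction -3.85, SE 1.26). ELOVL6, which elongates long-chain fatty acids, had 0.919, 1.93 and 1.08 CPM in ME goats, against 12.7, 2.78 and 3.99 CPM in MC goats. Its levels in Palmera overlapped, at 5.54, 5.58 and 2.08 CPM in PE goats, against 8.26, 5.38 and 3.81 CPM in PC goats (interaction -1.87, SE 0.77). GPD1, the dehydrogenase that also yields glycerol 3-phosphate, had a difference of -0.51 in Majorera and 1.07 in Palmera (interaction -1.58, SE 0.61). Malic enzyme (ME1), a source of NADPH, had an interaction of -2.85 (SE 1.00), and DGAT2, which adds the last acyl chain, one of -3.23 (SE 1.48). Of the 6, 4 missed the threshold without 1 library: ELOVL6 was at -0.93 (SE 0.62) without MC replicate 1, ME1 at -1.74 (SE 0.84) without MC replicate 2, and THRSP at -2.41 (SE 1.47) and DGAT2 at -1.98 (SE 2.08) without PE replicate 3.

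The most abundant enzyme of the pathway did not share this. FASN, fatty acid synthase, had 1431, 216 and 895 CPM in ME goats, against 1690, 1763 and 1758 CPM in MC goats. It had 997, 1774 and 574 CPM in PE goats, against 3724, 1503 and 1509 CPM in PC goats, so that the differences were -1.04 and -1.01 and the interaction was -0.03 (SE 0.83). LIPG, endothelial lipase, was the one furthest to the other side, at 2.50 (SE 1.16, unadjusted p = 0.0505 in edgeR). Without ME replicate 2 the list had 5 members under the threshold, all negative, and a median of -0.84, and with scaling by mapped reads alone its median was -0.13, where the median over all genes was 0.98.

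**Figure D4:**
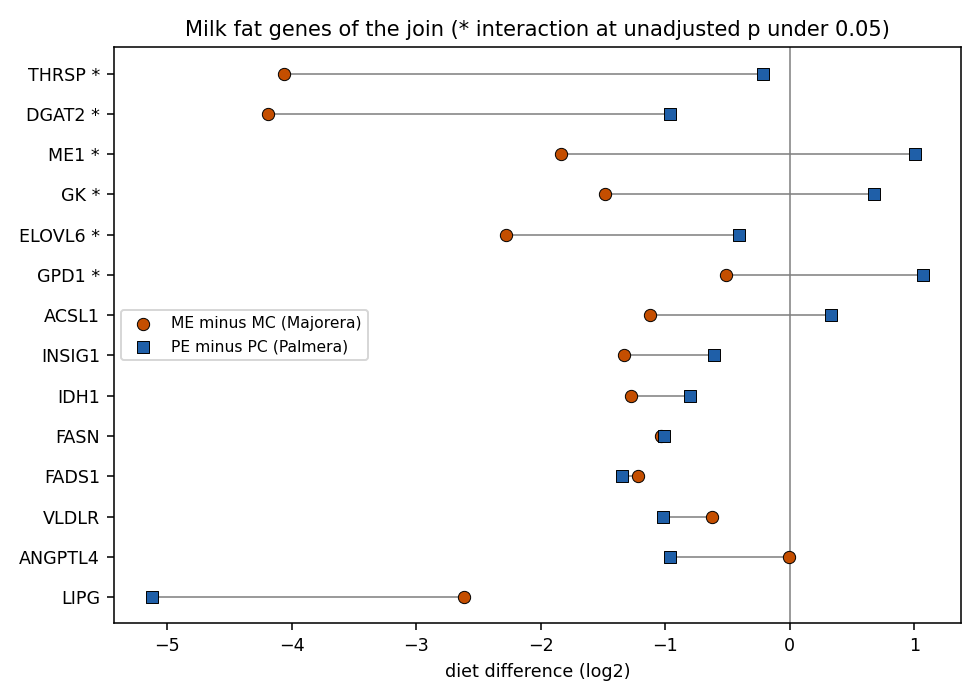
Fitted diet difference (log2) of the 14 joined milk fat genes in Majorera (circles, ME minus MC) and Palmera (squares, PE minus PC), ordered by interaction, with an asterisk for the 6 genes under the unadjusted threshold. For these 6 the circle lies left of the square, whereas the points of FASN nearly coincide at -1.04 and -1.01.

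Fat cell markers also had negative estimates, but the defining ones showed no clear interaction. Of 15 listed adipocyte genes 6 were joined, all 6 with a negative interaction, 2 of them under the threshold (CIDEC, a lipid droplet protein, at -3.38, SE 1.09, or -2.40, SE 1.22, without PE replicate 1, and GPD1, which both lists hold), and the median was -1.46. The summed level of the 6 was 2.15 to 3.74 CPM in ME goats, against 11.1 to 17.4 CPM in MC goats. It was 6.36 to 10.1 CPM in PE goats, against 6.57 to 8.04 CPM in PC goats. Most of the PE sums was GPD1, with 9.37, 5.55 and 5.99 CPM of 10.1, 6.36 and 6.51. In PC goats GPD1 had 5.97, 2.78 and 1.23 CPM, so that the sum does not show the other members. PLIN4 was lower in restricted goats of both breeds without overlap. Of the defining markers, LEP, the hormone leptin, had 0 counts in all ME and PE libraries, so that its estimate rests on the control libraries alone. ADIPOQ, the hormone adiponectin, had 0.546, 0.275 and 0.464 CPM in ME goats, against 8.73, 5.52 and 8.44 CPM in MC goats. In Palmera ADIPOQ had 0.164, 0.306 and 0.150 CPM in PE goats, against 0.563, 3.72 and 3.40 CPM in PC goats (interaction -0.49, SE 0.85). ADIPOQ was thus lower in restricted goats of both breeds without overlap. The part of fat cells in the milk fat result was not tested.

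Milk proteins showed no member under the threshold. Of 8 listed genes 5 were joined, and their median diet difference was -1.22 in Majorera and -1.31 in Palmera. CSN2, β-casein, had an interaction of 0.09 (SE 0.84), and LALBA, α-lactalbumin of lactose synthase, one of -0.18 (SE 0.71), both errors being larger than the estimates. The median interaction of the 5 was -0.24, and it was 0.09 without ME replicate 2. With mapped reads alone it was 0.75, below the median of 0.98 that this scaling gave over all genes. Cholesterol synthesis had 7 of 27 joined and 0 under the threshold, although all 7 estimates were negative (median -0.67, and 0.27 with mapped reads alone, again below 0.98). The 7 of 13 mitochondrially encoded genes were also all negative with 0 under the threshold (median -0.25, and 0.61 with mapped reads alone, also below 0.98).

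In nucleotide metabolism members went both ways. Of 40 listed genes 5 were joined, 3 were under the threshold with a positive interaction and 1, CTPS1, with a negative one. ENPP1, which splits extracellular nucleotides, had 3.48, 17.9 and 4.14 CPM in ME goats, against 3.14, 2.18 and 1.91 CPM in MC goats, and its interaction was 2.55 (SE 0.76), or 1.36 (SE 0.44) without ME replicate 2. LOC102191092, which is CDA, cytidine deaminase, in the current goat annotation, had 7.18, 1.15 and 15.8 CPM in ME goats, against 1.83, 4.96 and 2.58 CPM in MC goats. In PE goats it had 0.368, 0.749 and 0.150 CPM, against 1.28, 2.22 and 0.975 CPM in PC goats, which did not overlap (interaction 3.28, SE 1.11). The third was RRM2, a subunit of ribonucleotide reductase, at 3.70 (SE 1.65), or 1.27 (SE 1.37) without ME replicate 2, which left 2 positive members and moved the list median to 1.27, against 2.55 with all libraries. The surface peptidases, DPP4 among them, had 7 of 20 joined, with 3 positive and 1 negative under the threshold. The negative one was CPXM2, a carboxypeptidase family member, at -3.36 (SE 1.10), or -2.22 (SE 0.97) without MC replicate 2. Without ME replicate 2 the list had 2 positive and 2 negative members under the threshold, the added one being FAP, a fibroblast peptidase, at -1.38 (SE 0.49).

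Macrophage genes were on the positive side, and here ME replicate 2 decided the count. Of 22 listed genes 11 were joined, 10 had a positive estimate, and 4 were under the threshold, all positive, with a median of 1.16. TREM2, a lipid-sensing receptor, had 2.21, 10.2 and 2.15 CPM in ME goats, against 0.160, 0.141 and 0.388 CPM in MC goats. It had 1.08, 1.50 and 1.89 CPM in PE goats, against 0.626, 0.438 and 0.0943 CPM in PC goats. Restricted goats were above controls without overlap in both breeds, and the interaction of 2.46 (SE 1.04) became 1.27 (SE 0.78) without ME replicate 2. CD68, a lysosomal membrane protein, had an interaction of 1.40 (SE 0.60), GPNMB, a membrane glycoprotein, one of 1.70 (SE 0.73) and CTSS, a lysosomal protease, one of 0.99 (SE 0.45).

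Without ME replicate 2, 0 of the 11 macrophage genes were under the threshold and the median was 0.55. The summed level of the 11 was 93.2, 320 and 124 CPM in ME goats, against 53.9, 41.7 and 44.2 CPM in MC goats. It was 89.2, 58.9 and 103 CPM in PE goats, against 44.8, 36.2 and 38.8 CPM in PC goats, so that it was higher in restricted goats of both breeds without overlap.

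The same library carried the positive members of 2 more lists. Matrix proteases and involution genes had 17 of 33 joined and 2 under the threshold (CTSS again, and MMP9, a gelatinase, at 5.10, SE 2.20). This share was below the 16.2% over all joined genes. Without ME replicate 2 there were 0 positive and 1 negative, CLU, which went from 0.98 to -0.96 (SE 0.41). The list median went from 0.83 to -0.18. MMP9 had 1.34, 39.6 and 1.77 CPM in ME goats, against 0.770, 0.0703 and 0 CPM in MC goats. Cell cycle genes had 6 of 26 joined and 2 under the threshold, MKI67, the proliferation antigen, at 3.26 (SE 1.23), and RRM2, and 0 without ME replicate 2. MKI67 had 0.174, 2.57 and 0.443 CPM in ME goats, against 2.15, 1.34 and 0.883 CPM in MC goats, and 0.0613, 0.0340 and 0.262 CPM in PE goats, against 2.85, 1.19 and 1.04 CPM in PC goats. For MKI67, PE libraries were below PC libraries without overlap. BIRC5, survivin of dividing cells, had 0 counts in all PE libraries, but PC libraries had only 10, 5 and 0, so that they overlapped (interaction 5.62, SE 2.72).

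Early response genes tended to the negative side. Of 27 listed genes 13 were joined, 11 had a negative estimate, 4 were under the threshold with a negative interaction and 1, MYC, a growth regulator, with a positive one (0.80, SE 0.32). NR4A1, an orphan nuclear receptor switched on within minutes of a stimulus, had 0.720, 2.39 and 1.27 CPM in ME goats, against 0.642, 1.02 and 2.08 CPM in MC goats. It had 3.68, 21.6 and 3.91 CPM in PE goats, against 1.47, 0.563 and 0.503 CPM in PC goats, with overlap in Majorera alone (interaction -3.25, SE 1.05, and -1.90, SE 0.78, without PE replicate 2, the highest library). DUSP6, a phosphatase that limits ERK signalling, was similar, at 10.4, 8.71 and 11.6 CPM in PE goats, against 4.13, 2.94 and 2.36 CPM in PC goats (interaction -1.57, SE 0.59, and -0.88, SE 0.46, without MC replicate 3). CSRNP1 and ATF3, both transcription factors, had interactions of -0.96 (SE 0.43) and -1.83 (SE 0.84), which were -0.65 (SE 0.40) and -0.77 (SE 0.64) without PE replicate 2. The median of the list was -0.63, with mapped reads alone it was 0.30, against 0.98 over all genes, and without ME replicate 2 there were 5 negative members and 0 positive.

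Of the heat shock and metal stress genes 8 of 24 were joined, 7 with a negative estimate. Only 1 was under the threshold, where the share over all joined genes was 16.2%. This was HSP70.1, an inducible chaperone (-1.71, SE 0.66, and -1.29, SE 0.66, without PE replicate 2). It had 16.96, 19.3 and 12.6 CPM in ME goats, against 7.25, 6.61 and 10.6 CPM in MC goats. It had 71.6, 85.4 and 14.1 CPM in PE goats, against 8.10, 8.01 and 9.97 CPM in PC goats. Restricted goats were higher in both breeds without overlap, and 2 of the 3 PE libraries stood far above the rest. All 12 counts of HSP70.1 were fractional.

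Some lists of other cell types held 1 or 2 genes under the threshold, where the share over all joined genes was 16.2%. Several of these counts were near that share, and none is read as a result about its cell type. Fibroblast and matrix genes had 12 of 27 joined with 2 negative, FBLN2, a matrix protein, at -2.07 (SE 0.58), and SVEP1, an adhesion protein, at -1.87 (SE 0.63), and without ME replicate 2 there were 3, with POSTN, periostin, at -3.92 (SE 1.04). Neutrophil genes had 7 of 17 joined with 1 positive (MMP9) and 1 negative (LOC102182683), and without ME replicate 2 the positive one was lost. Endothelial genes had 3 of 18 joined, and VCAM1, an adhesion molecule for leukocytes, was at 1.91 (SE 0.80), or 0.80 (SE 0.56) without ME replicate 2. Skeletal muscle genes had 6 of 23 joined with ENO3, muscle enolase, at 1.93 (SE 0.81), and without ME replicate 2 ENO3 was at 1.43 (SE 0.79), above the threshold, while NEB, nebulin, at 0.98 (SE 0.40), and ACTN2, an actinin, at -3.87 (SE 1.35), were under it. Skin and apocrine gland genes had 5 of 13 joined with SCGB2A2, a secretoglobin, at -2.33 (SE 0.99), or -1.75 (SE 1.02) without PE replicate 2.

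No member was under the threshold among the joined genes of lactation signalling (7 of 30), myoepithelial and smooth muscle (6 of 19), T and NK cells (5 of 21), B and plasma cells (3 of 12), dendritic cells (2 of 9), fasting and glucocorticoid response (4 of 19) and the endoplasmic reticulum and secretory machinery (3 of 29). Without ME replicate 2, IGFBP6, an IGF-binding protein of the first of these lists, was at -1.45 (SE 0.40) and ERO1L, an oxidase of the endoplasmic reticulum, at 1.37 (SE 0.52), both under the threshold. None of the 8 erythroid genes was joined. Of 27 lists, 16 had at least 1 member under the threshold, 10 had none and 1 had no joined member. The study named 8 candidate genes from these same libraries, so their counts are not independent evidence. Of these, 7 were joined, with 2 positive (ENPP1 and GPNMB) and 4 negative (CTPS1, GPD1, ELOVL6 and NR4A1) under the threshold, and S-LZ, a lysozyme, at 1.95 (SE 1.08). Without ME replicate 2, 1 was positive, GPNMB being at 1.05 (SE 0.64) and S-LZ at 0.55 (SE 0.85).

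**Figure D5:**
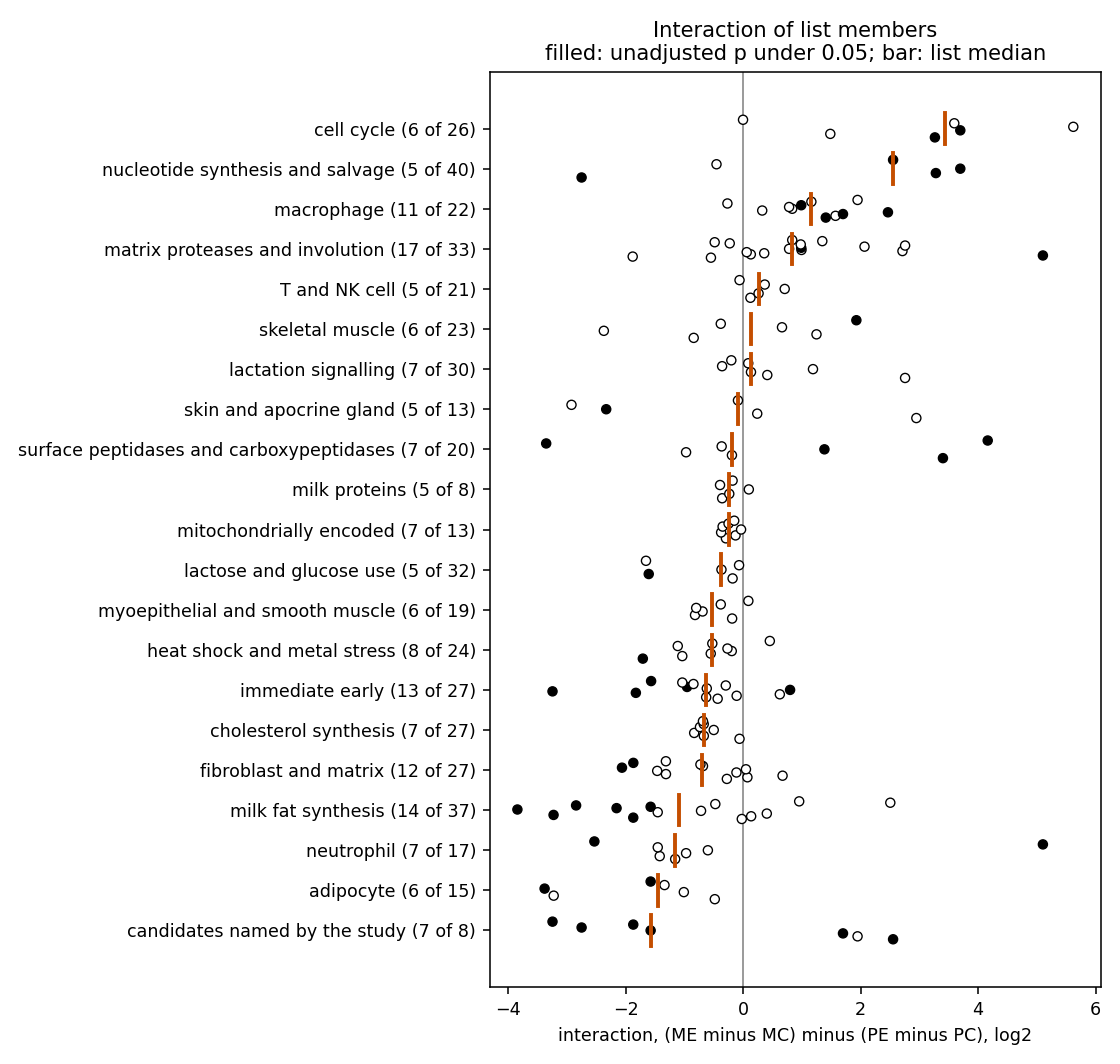
Interaction (log2) of each member of the lists with at least 5 joined genes, filled where the unadjusted p was under 0.05, with a bar at the list median, and with the joined and listed numbers in brackets. Milk fat and adipocyte members lie mostly left of 0 (medians -1.09 and -1.46) and macrophage members mostly right (median 1.16 with ME replicate 2 included).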

How the data were processed

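Mammary poly(A) RNA was sequenced as stranded read pairs. Per the labels and the study's methods, Bowtie2 2.2.3 and RSEM 1.2.17 were run against the assembly CHIR_1.0. The deposited values used here are the authors' RSEM expected counts per gene and library, neither scaled nor pooled; 9.14% were fractional, and all were rounded for the tests. The deposited log2 fold changes, log2 mean abundances, p-values and FDR hold the authors' own edgeR 3.2.4 comparisons and were not used. Every column was matched to a sample, and counts repeated between tables were identical (16437 compared). Of the gene IDs, 1340 of 1408 were found in the RefSeq table (ARS1.2), which served for names only.

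The interaction was fitted over all 12 libraries with edgeR 4.0.16 (quasi-likelihood test, limma 3.58.1, R 4.3.3). Library sizes were the study's mapped reads (29400000 to 54600000, rounded) times TMM factors over 1998 rows of the study's unselected count table. The trend of the spread came from 846 of these rows (1 CPM or more in 3 or more libraries), since the joined genes had been selected by pairwise p. P was adjusted by Benjamini-Hochberg over 24260 genes, untested genes being taken to have larger p. SE is the size of the estimate divided by the square root of F. The test was also run on simulated counts. These were not selected by pairwise p, as the joined genes were, so the run does not give the error rate on the joined genes. Medians and counts were made with Python 3.11.15 and pandas 2.3.3.

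Genes named were each called gene, the 12 of smallest p per direction with more than 100 counts in a library, up to 3 members of smallest p per list, and the study's candidates; further members under the threshold, ADIPOQ, LEP, FASN, LIPG, CSN2, LALBA and the crossing genes were named after their values were seen. Some genes that the rule took are not reported here. The members and the 27 lists were chosen with earlier results of these data known. Groups came from the sample titles, and p-values measure the spread among 3 goats a group. The alternatives were other scalings, DESeq2 1.42.0, the spread of the joined genes, a count filter, adjustment over the joined genes, a replicate block and leaving out each library.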

Additional observations from a re-analysis of the deposited data

Results flagged for a closer look

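The diet effect differed between the breeds by an interaction test for 1 gene: LOC102169730 had an interaction of 3.54 on the log2 scale (SE 0.40, edgeR adjusted p = 0.0183, Benjamini-Hochberg), with ME above MC in 3 of 3 goats and PE below PC in 3 of 3 goats.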

How the results depend on the processing

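Against 1 gene called, there were 2 with mapped reads alone, 7 with the DESeq2 Wald test, 8 when adjusted over the joined genes, 0 with the spread from the joined genes, and 0 to 2 without 1 library. Replicate numbers gave little sign of a pairing across groups (2 of 18 same-numbered pairs correlated above 0.1, and 2 of 12 libraries were closest to their own number). With 3 goats a group this check cannot show that there was none. With a replicate block 0 genes were called and PIGR was at -0.0126. Over its 20 alternatives LOC102169730 stayed positive in 20, with adjusted p from 1.02e-09 to 0.149. Mapped reads alone moved the median interaction of all genes by 0.94, gave positive estimates in 82.2% of genes, against 52.2%, and left 404 positive and 33 negative genes under the unadjusted threshold, against 108 and 120. More than 100 counts in a library left 1073 genes, with 81 positive and 78 negative. Without ME replicate 2, 268 genes were under the threshold, of which 175 were shared. Signs were compared gene by gene only for the 94 genes that the naming rule took, so the reversals listed next are not all that occurred. Among these 94, the following turned positive with mapped reads alone: ACTG2 0.0369, HSPA6 0.0681, DNAJB1 0.137, SMTN 0.137, TM7SF2 0.149, EBP 0.192, FDPS 0.266, CNN1 0.274, PLOD2 0.345, CSN3 0.407, EGLN3 0.436, ATP6 0.512, COX1 0.529, CSN1S1 0.53, ND4 0.607, SLC35D2 0.611 and CSN1S2 0.75. The size of the change differed between genes, as from -1.12 to 0.137 in DNAJB1 and from -0.40 to 0.407 in CSN3. Among the same 94 genes, leaving out 1 library changed the sign for 7 of small interaction or large spread, CSN1S2 (-0.617 to 0.766), EGLN3 (-0.977 to 0.114), IGFBP2 (-0.314 to 0.779), IL7R (-0.0696 to 0.626), IRF8 (-0.497 to 0.444), KRT6A (-0.527 to 3.83) and PIGR (-0.498 to 0.577). Genes outside the 94 changed sign too, such as CLU, from 0.98 to -0.96 without ME replicate 2. In that fit 42.5% of all joined genes had positive estimates, against 52.2% with all libraries. The leave-one-out fits hold fewer libraries, and the cause of the changes was not tested. With 3 goats a group, interactions of small size in genes of large spread were not detectable.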
